A study of Mus musculus with 2 samples.

Results

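Immediate early genes are transcribed within minutes of a signal, without new protein synthesis, and their mRNAs decay quickly. The 10 genes followed here, Fos, Fosb, Jun, Junb, Jund, Egr1, Atf3, Ier2, Zfp36 and Dusp1, were chosen by name and are 10 of 21951 gene features. Their levels were read in barcodes with 2000 to 75000 gene UMIs (unique molecular identifiers, each 1 captured mRNA), over 500 genes, and mitochondrial and haemoglobin shares under 5% each, in Cdh5-positive cells that carried 1 hashtag and in cells gated by marker genes. All 10 were detected in each hashtag group. FOS and JUN proteins pair to form the AP-1 transcription factor, EGR1 and ATF3 are transcription factors of the same first wave, and ZFP36 and DUSP1 close the response by destroying unstable mRNAs and by dephosphorylating MAP kinases. In endothelium these genes respond to growth factors, shear stress and cytokines, and in many tissues they are also induced while cells are released by enzymes, so a level in dissociated cells need not be the level in the intact tissue. Tissue that had not been digested was not measured, and the part of digestion in the levels was not tested.

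The data were one 10x Genomics library of sorted endothelial cells (ECs) from the heart and liver of C57BL/6 pups, pooled after each of 6 groups had been marked with a hashtag antibody. Of 14348 barcodes that passed the filters, 11771 carried none of these 6 hashtags, so most of the library cannot be assigned to the groups. The library also held cells outside endothelium, and 7 hashtag features with no group in the labels. Every pup group received 40 mg/kg 4-hydroxytamoxifen on postnatal day 3 and was collected 3 days later, at P6 to P7, and the tissue was digested with collagenase I and dispase II for 30 min at 37 °C. Cdh5-CreERT2 drives a tamoxifen-dependent recombinase in ECs, iSuRe-Cre is an allele that then expresses a membrane Tomato reporter together with Cre, and iSuRe-HadCre is a later version whose Cre is expressed briefly and then removed by a FlpO recombinase that the same allele encodes. The labels give Cdh5-CreERT2 and iHadSuRe-Cre for the whole pool and name the third group of each tissue Control without its alleles; the study describes deletion of floxed Notch1 in these cells. How many pups entered each hashtag is not given in the sources used here. The groups held 254 Control, 435 iSuRe-Cre and 311 iSuRe-HadCre cells from heart that were Cdh5-positive, and 54, 858 and 76 liver cells in the same order. Each group was 1 hashtagged sample, so no difference between groups has a replicate check, and the 95% intervals given in brackets cover counting error only. Levels are given as CPM, the UMIs of a gene for every 1000000 gene UMIs, both summed over the cells of a group.

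Several facts of the pool bear on what follows. Notch1, the gene the study deleted, was at 138 CPM in Control heart against 12.7 and 23.2 CPM in iSuRe-Cre and iSuRe-HadCre heart, and at 160.2 against 21.4 and 30.8 CPM in liver. The endothelial genes Cdh5 and Pecam1 were at 738 to 1310 and 485 to 872 CPM in the 6 groups. Cells passing the sinusoidal gate on Stab2 were 347 of 858 in iSuRe-Cre liver, 11 of 76 in iSuRe-HadCre liver and 1 of 54 in Control liver, so nearly all Control liver cells lay outside the gate for the liver's main EC type. The reporter tail WPRE was at 562 CPM in Control heart, 63.5 CPM with iSuRe-Cre and 1055 CPM with iSuRe-HadCre, and 396, 105 and 1070 CPM in liver, so it was lowest in the iSuRe-Cre groups; the sort was for CD31+ cells with Tomato. Median depth was 16380 UMIs per cell in iSuRe-Cre heart and 7322 to 9100 in the other groups. RNA free in the droplets, read from 24194 barcodes of 10 to 100 UMIs, held the 10 genes at 2802 CPM in all, against 2993 to 5068 CPM in the 6 groups. A level at or under that of free RNA does not show that a gene is off, because free RNA is usually a small part of what a cell barcode holds.

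Each of the 10 genes has 4 or fewer exons in the GENCODE annotation of GRCm38, as do 34.1% of coding genes, and Jun, Junb, Jund and Ier2 have 1 exon. Fos lies at chr12:85473890-85477273 on the plus strand, Jund at chr8:70698949-70700616 on the plus strand, Jun at chr4:95049034-95052222, Junb at chr8:84974484-84978718, Fosb at chr7:19302696-19310051, Atf3 at chr1:191170296-191218039, Ier2 at chr8:84661331-84662852, Zfp36 at chr7:28376784-28380253 and Dusp1 at chr17:26505590-26562128 on the minus strand. Because the members tended to be found in the same cells, as given further on, the bases before their starts were read from the RefSeq promoter table (build GRCm38.p6). This held 8 of the 10, all but Egr1 and Ier2, which were therefore not searched. The motif TGACG, the half-site bound by CREB and ATF proteins, was searched on both strands in the 250 bases before each start. It occurred before Fos, Fosb, Junb, Atf3 and Dusp1, 5 of 8 members, and before 17.8% of 32851 RefSeq starts, though the Atf3 match lies 7 to 3 bases before its RefSeq start, inside an annotated exon and 34706 bases from the GENCODE start; the full site TGACGTCA, which holds the half-site on each strand, occurred before Dusp1 alone of the members and before 1.55% of starts. A CArG box, the site of serum response factor, was found before Zfp36 only (1.47% of starts). However, the 200 bases before the Zfp36 start, which hold this match, lie inside an annotated exon, and that RefSeq start is 1025 bases from the GENCODE start. TATAAA was found before Fos only (12.4%), CCAAT before Jun and Junb (33.8%), GGGCGG before 6 members (32.7%), and the AP-1 site TGANTCA before none (6.75%). These are matches of letters and not evidence of binding, and the absence of a match says only that the letters are not in the window.

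Shown are 4 members with TGACG before the start and, for contrast, Jun, which had none; capitals mark TGACG on either strand, each sequence reads 5′ to 3′ along the gene, and bases inside an annotated exon were left out. The windows are chr12:85473690-85473889 (plus strand) for Fos and, on the minus strand, chr7:19310052-19310245 for Fosb, chr8:84978749-84978948 for Junb, chr17:26508520-26508672 for Dusp1 and chr4:95052223-95052422 for Jun. The Jund entry of RefSeq starts 1210 bases before the GENCODE start and the Zfp36 window lies inside an exon, so neither is shown; the Dusp1 window lies before the RefSeq start and inside the longest GENCODE gene model.
Fos: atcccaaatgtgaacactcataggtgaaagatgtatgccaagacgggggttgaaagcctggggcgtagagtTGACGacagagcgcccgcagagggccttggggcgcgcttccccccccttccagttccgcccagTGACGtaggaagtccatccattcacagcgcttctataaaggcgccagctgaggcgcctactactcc
Fosb: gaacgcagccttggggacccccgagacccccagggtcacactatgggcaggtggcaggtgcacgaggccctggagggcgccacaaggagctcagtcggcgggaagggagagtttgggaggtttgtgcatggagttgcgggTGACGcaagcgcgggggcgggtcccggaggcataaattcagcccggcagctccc
Junb: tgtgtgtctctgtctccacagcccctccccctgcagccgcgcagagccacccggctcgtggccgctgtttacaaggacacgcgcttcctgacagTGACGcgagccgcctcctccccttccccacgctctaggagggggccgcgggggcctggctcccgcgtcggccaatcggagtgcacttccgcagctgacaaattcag
Dusp1: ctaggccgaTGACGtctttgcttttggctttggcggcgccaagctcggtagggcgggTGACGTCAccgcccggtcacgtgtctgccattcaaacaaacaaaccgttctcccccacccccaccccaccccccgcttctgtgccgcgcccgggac
Jun: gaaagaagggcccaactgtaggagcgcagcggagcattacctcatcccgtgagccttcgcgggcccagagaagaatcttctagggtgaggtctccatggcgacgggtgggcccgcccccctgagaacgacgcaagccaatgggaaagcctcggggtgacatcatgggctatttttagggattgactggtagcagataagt

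In heart ECs the 10 genes together were lower in the iSuRe-Cre group and about level between iSuRe-HadCre and Control. Their summed level was 4867 CPM (4789 to 4946) in Control heart, 4014 CPM (3971 to 4057) with iSuRe-Cre and 5068 CPM (4989 to 5148) with iSuRe-HadCre. In liver the sums were lower than in heart for every genotype, at 2993 CPM (2859 to 3132) in Control, 3221 CPM (3184 to 3257) with iSuRe-Cre and 3685 CPM (3543 to 3832) with iSuRe-HadCre. In the 3 heart comparisons no member passed 2-fold (10 CPM added to both levels), and few genes did. The shares of 9742 genes past 2-fold were 2.64% for iSuRe-Cre over Control, 1.31% for iSuRe-HadCre over Control and 2.53% for iSuRe-HadCre over iSuRe-Cre. Nothing about the members is therefore read from this count.

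Fos and Fosb encode the FOS partners of AP-1, which bind DNA only as a pair with a JUN protein. Fos was at 641 CPM in Control heart, 473 CPM with iSuRe-Cre and 694 CPM with iSuRe-HadCre, and 258, 390.1 and 397 CPM in the liver groups in this order. The order in heart was iSuRe-HadCre, Control, iSuRe-Cre, and in liver both iSuRe groups stood above Control; the free RNA held Fos at 426 CPM, above all 3 liver groups. The iSuRe-Cre to Control ratio of Fos was 0.738 (0.699 to 0.779) in heart and 1.51 (1.29 to 1.78) in liver, so the intervals lie on opposite sides of 1. Fos in iSuRe-HadCre heart was 1.47 (1.39 to 1.55) times its level in iSuRe-Cre heart. Fosb was at 61.7 CPM in Control heart, 50.1 CPM with iSuRe-Cre and 74.5 CPM with iSuRe-HadCre, and 36.9, 44.6 and 84.9 CPM in the liver groups in this order, and at 117 CPM in free RNA, above every EC group. In liver Fosb was 2.30 (1.40 to 3.91) times as high in iSuRe-HadCre as in Control, on 58 and 23 UMIs.

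Jun, Junb and Jund encode the JUN partners; Jund is the member known for a steady level in resting cells. Jun was at 1008 CPM in Control heart, 803 CPM with iSuRe-Cre and 919.8 CPM with iSuRe-HadCre, and 704, 751 and 824 CPM in the liver groups in this order, and its free RNA level was 425 CPM. It was 0.797 times the Control level in iSuRe-Cre heart and 0.913 times in iSuRe-HadCre heart, and every group stood above free RNA. Junb was at 643 CPM in Control heart, 511 CPM with iSuRe-Cre and 609.7 CPM with iSuRe-HadCre, and 299.7, 433 and 464 CPM in the liver groups in this order, against 307 CPM in free RNA. Its ratio of iSuRe-Cre to Control was 0.794 (0.753 to 0.838) in heart and 1.45 (1.25 to 1.68) in liver, the same opposed pattern as Fos. Jund was at 965 CPM in Control heart, 1049 CPM with iSuRe-Cre and 1177 CPM with iSuRe-HadCre, and 852, 661 and 798 CPM in the liver groups in this order, with 649 CPM in free RNA. Unlike Fos, Jun and Junb, Jund was not lower in iSuRe-Cre heart: its ratio to Control was 1.09 (1.04 to 1.14) there and 0.776 (0.710 to 0.849) in liver.

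Egr1 encodes a zinc finger factor of the first wave, Atf3 a stress factor of the ATF family, and Ier2 a nuclear protein whose role is less well known. Egr1 was at 337 CPM in Control heart, 253 CPM with iSuRe-Cre and 343 CPM with iSuRe-HadCre, and 144, 190.1 and 259 CPM in the liver groups in this order, and at 234 CPM in free RNA. Egr1 thus followed Fos: lowest of the heart groups in iSuRe-Cre, with a ratio to Control of 0.751 (0.696 to 0.810), and above Control in both iSuRe liver groups. Atf3 was at 184 CPM in Control heart, 219 CPM with iSuRe-Cre and 275 CPM with iSuRe-HadCre, and 127, 125 and 132 CPM in the liver groups in this order, with 117 CPM in free RNA. Atf3 went the other way in heart, at 1.19 (1.08 to 1.31) times Control in iSuRe-Cre and 1.50 (1.34 to 1.67) times in iSuRe-HadCre, and the 3 liver groups did not separate beyond counting error. Ier2 was at 433 CPM in Control heart, 294 CPM with iSuRe-Cre and 401 CPM with iSuRe-HadCre, and 288, 261 and 389.5 CPM in the liver groups in this order, and at 298 CPM in free RNA. Within each tissue Ier2 was lowest with iSuRe-Cre, at 0.678 (0.634 to 0.725) times Control in heart and 0.904 (0.776 to 1.06) times in liver, where the interval held 1.

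Zfp36 and Dusp1 encode the brakes of the response. Zfp36, an mRNA-binding protein that shortens the life of AU-rich messages, was at 239 CPM in Control heart, 132 CPM with iSuRe-Cre and 162 CPM with iSuRe-HadCre, and 104, 166 and 122 CPM in the liver groups in this order, with 108 CPM in free RNA. Of the members it had the lowest iSuRe-Cre to Control ratio in heart, 0.551 (0.501 to 0.606), and the highest in liver, 1.59 (1.24 to 2.08). Zfp36 was also lower than Control in iSuRe-HadCre heart, 0.680 (0.606 to 0.763). Dusp1, a MAP kinase phosphatase, was at 357 CPM in Control heart, 231 CPM with iSuRe-Cre and 411 CPM with iSuRe-HadCre, and 179.5, 199 and 215 CPM in the liver groups in this order, against 121 CPM in free RNA. Dusp1 showed the widest gap between the iSuRe heart groups, 1.78 (1.66 to 1.91) times the iSuRe-Cre level with iSuRe-HadCre.

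**Figure D1:**
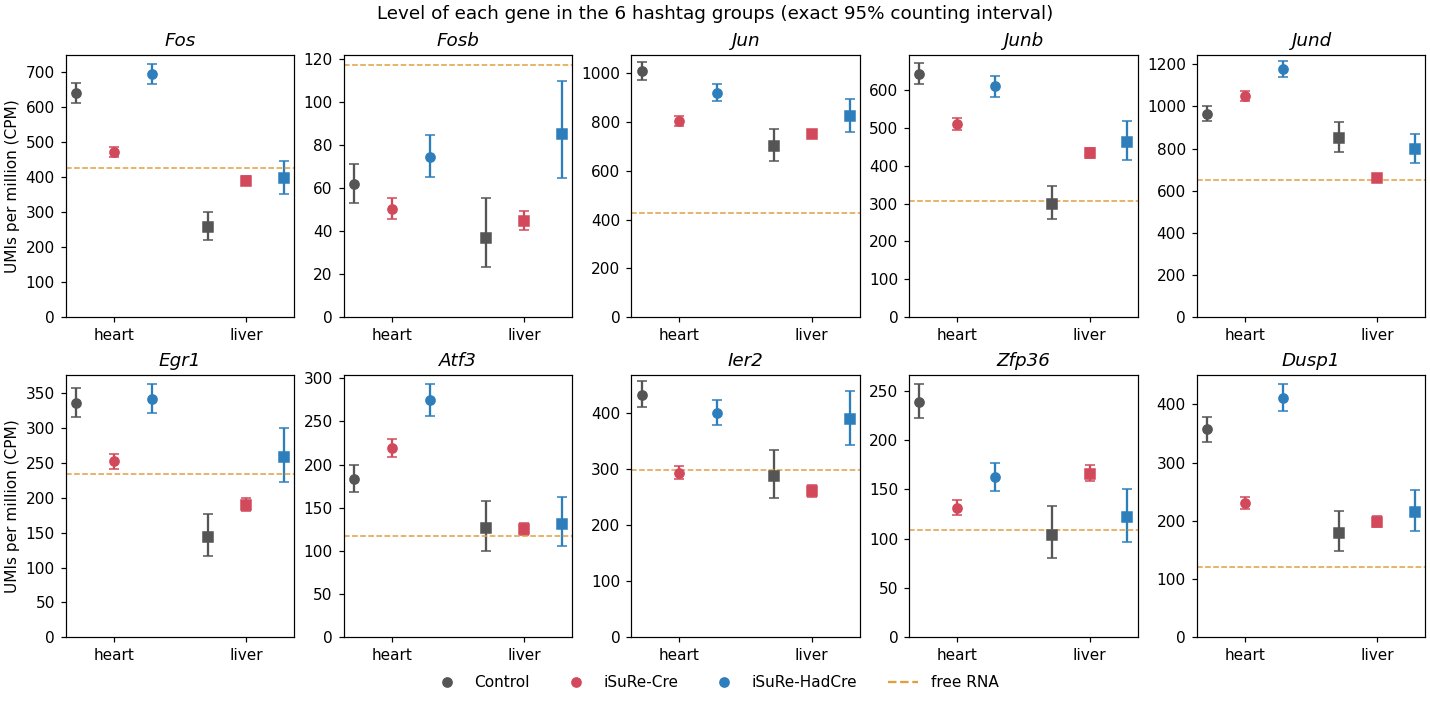
Level of each of the 10 genes (vertical axis, CPM) in Cdh5-positive cells of the 6 hashtag groups, heart at left and liver at right of each panel; points are 1 sample each with the exact Poisson 95% interval and the dashed line is the level in free RNA. Fos runs from 258 CPM in Control liver to 694 CPM in iSuRe-HadCre heart, while Fosb stays under its free RNA line in all 6 groups.

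Set against all genes, the lower level in iSuRe-Cre heart was shared by 8 of the 10 members. For iSuRe-Cre over Control in heart, 2 members (Jund and Atf3) had a ratio above 1, as did 43.4% of 9742 genes with 200 or more UMIs, and 8 were below 1, as were 56.6%; 2.64% of genes and none of the members were past 2-fold. The median ratio of the members was 0.777 and that of all genes 0.969. The iSuRe-HadCre over Control comparison in heart had 6 members above 1 (65.2% of genes) and 4 below (34.8%), with 1.31% of genes past 2-fold and medians of 1.05 and 1.07. Between iSuRe-HadCre and iSuRe-Cre heart all 10 were higher in iSuRe-HadCre, from 1.12 for Jund to 1.78 for Dusp1, as were 66.3% of genes; 2.53% of genes were past 2-fold, and the medians were 1.29 and 1.10. These 3 comparisons share their groups and are not independent of one another.

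The lower level in iSuRe-Cre heart moved with depth and with the reporter, and both values belong beside it. Within Control heart the summed level was 6165 CPM in cells of 2000 to 5000 UMIs, 5344 at 5000 to 10000, 4847 at 10000 to 20000 and 4375 above that, and iSuRe-Cre heart had 4873, 4362 and 3737 CPM in the last 3 of these bins. At matched depth iSuRe-Cre heart thus remained under Control in each shared bin, and in cells of 5000 to 15000 UMIs its ratio was 0.913 against 0.825 over all cells. Of 435 iSuRe-Cre heart cells 145 passed the study's limit on WPRE. In those 145 cells the summed level was 0.964 (0.942 to 0.987) times that of Control, and iSuRe-HadCre stood at 1.08 times iSuRe-Cre. The part of depth and of reporter level in the difference was not tested.

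**Figure D2:**
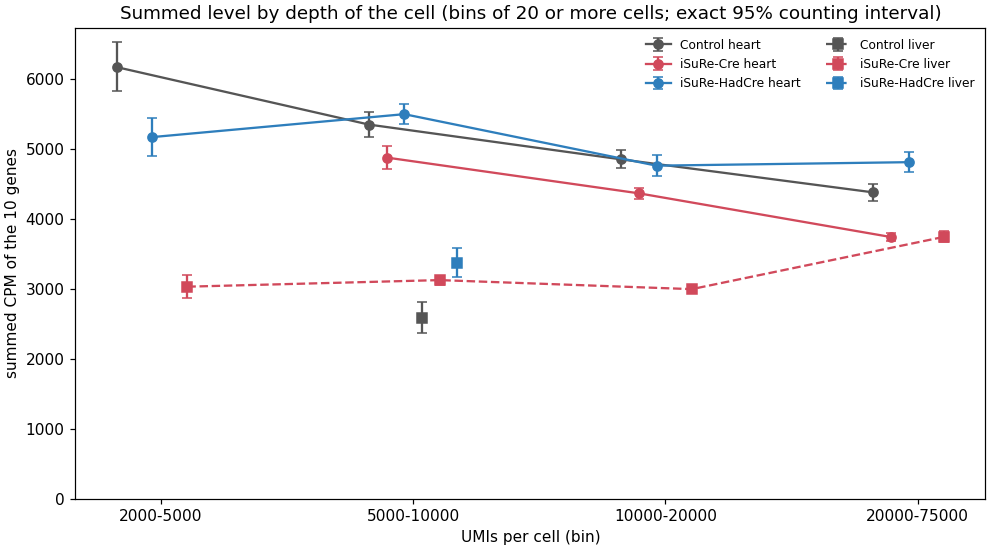
Summed level of the 10 genes (vertical axis, CPM) by UMIs per cell (horizontal axis, 4 bins) for each hashtag group, with exact Poisson 95% intervals and only bins of 20 or more cells. In heart (solid lines) Control falls from 6165 to 4375 CPM across the bins and iSuRe-Cre lies under it in each of the 3 bins both fill; liver (dashed lines) lies lower up to 20000 UMIs, and above that iSuRe-Cre liver at 3740 CPM is level with iSuRe-Cre heart at 3737 CPM.

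Within 1 cell type the ratio of the sum lay further from 1 in each heart comparison, though not that of every member. Capillary-like ECs, gated on Fabp4, a fatty acid carrier of heart capillaries, made up 84.7%, 74.2% and 67.5% of the Control, iSuRe-Cre and iSuRe-HadCre cells from heart. Among them the summed level was 5054 CPM in Control, 3787 with iSuRe-Cre and 5374 with iSuRe-HadCre. Median depth in the gate was 8465, 16310 and 7037 UMIs per cell in this order, and the part of depth in these ratios was not tested. The iSuRe-Cre to Control ratio was 0.749 (0.733 to 0.766) for the sum, 0.620 (0.580 to 0.663) for Fos, 0.636 (0.580 to 0.697) for Egr1 and 0.492 (0.442 to 0.547) for Zfp36, and the intervals of Jund and Atf3 held 1. In the same cells iSuRe-HadCre stood at 1.42 (1.39 to 1.45) times iSuRe-Cre in the sum and at 2.00 (1.83 to 2.18) times in Dusp1. Compared with Control, iSuRe-HadCre capillary cells held more Jund, 1.35 (1.27 to 1.43), and Atf3, 1.48 (1.30 to 1.68), and less Zfp36, 0.705 (0.614 to 0.808), and Egr1, 0.797 (0.707 to 0.898). Over all heart cells the Egr1 ratio was 1.02 (0.933 to 1.11), an interval that held 1.

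In liver the direction for iSuRe-Cre was not that of heart, but the groups held different cells. For iSuRe-Cre over Control 7 members were above 1 (44.1% of genes) and 3 below (55.9%); no member but 5.89% of genes passed 2-fold, and the sum was 1.08 (1.03 to 1.13) times Control. For iSuRe-HadCre over Control 9 members were above 1 (50.3%) and Jund was below (49.7%), Fosb was the 1 member more than 2-fold higher (1.43%), and the sum was 1.23 (1.16 to 1.31) times Control. For iSuRe-HadCre over iSuRe-Cre 9 members were above 1 (56.5%) and Zfp36 was below (43.5%), 4.23% of genes and no member were past 2-fold, and the sum was 1.14 (1.10 to 1.19). HTODemux, the function the study itself used to call the tags, put 230 cells in Control liver. With its tags the first 2 sums became 0.870 and 0.992, so neither direction against Control liver holds under both ways of calling. The sinusoidal-like cells had low levels: within iSuRe-Cre liver, cells in the Stab2 gate alone stood at 2642 CPM in the sum and cells in the Fabp4 gate alone at 3901 CPM, a ratio of 0.677 (0.648 to 0.708). Jund showed the widest gap of the members between them, 0.523 (0.475 to 0.575), while the intervals of Egr1, Atf3 and Zfp36 held 1.

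Liver ECs held less of these transcripts than heart ECs in each genotype. In Control all 10 members were lower in liver, against 41.4% of genes, and Fos, Junb, Egr1 and Zfp36 were less than 0.5 times their heart level, against 1.57% of genes. The Control ratios were 0.403 (0.341 to 0.473) for Fos, 0.428 (0.341 to 0.532) for Egr1, 0.436 (0.333 to 0.562) for Zfp36 and 0.466 (0.399 to 0.541) for Junb, with 0.884 (0.804 to 0.970) for Jund nearest to 1. The median member was at 0.581 and the median gene at 1.06. In iSuRe-Cre 9 members were lower in liver (40.5%) and Zfp36 was higher (59.5%), at 1.26 (1.17 to 1.36), and no member but 6.65% of genes passed 2-fold. In iSuRe-HadCre 9 were lower (50.4%) and Fosb was higher (49.6%), at 1.14 (0.840 to 1.53), an interval that holds 1; Atf3 was the member more than 2-fold lower (1.76% of genes), at 0.479 (0.381 to 0.596). The summed ratios of liver to heart were 0.615 (0.586 to 0.645), 0.802 (0.790 to 0.815) and 0.727 (0.697 to 0.758) for Control, iSuRe-Cre and iSuRe-HadCre, and cells in the Fabp4 gate gave 0.834 (0.807 to 0.862) in iSuRe-Cre. With tags called by HTODemux the summed ratios of liver to heart were 0.812, 0.822 and 0.747 for Control, iSuRe-Cre and iSuRe-HadCre. In iSuRe-Cre cells above 20000 UMIs liver, at 3740 CPM, was no lower than heart, at 3737 CPM. Median mitochondrial shares were 1.56% in iSuRe-Cre heart, 1.88% in Control heart and 1.54% in iSuRe-HadCre heart, and 2.03% to 2.65% in liver; their part was not tested.

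**Figure D3:**
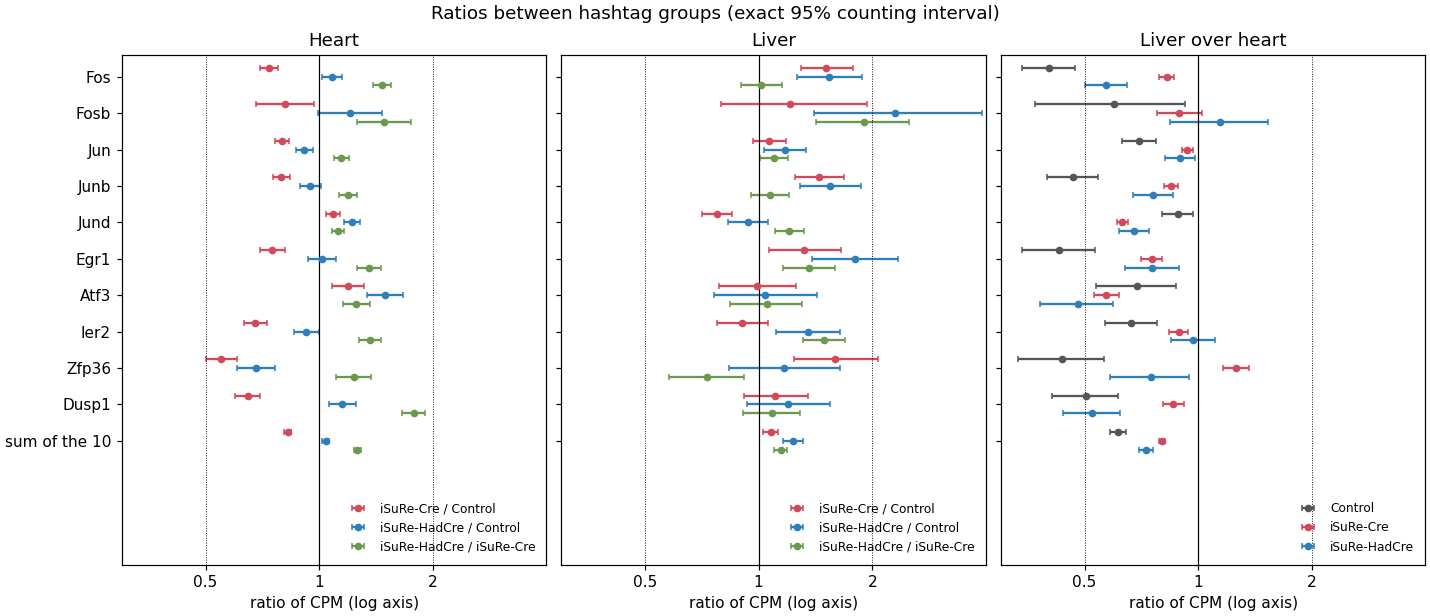
Ratio of CPM between hashtag groups for each gene and for the sum (horizontal log axis; solid line 1, dotted lines 0.5 and 2), within heart, within liver and liver over heart, with exact conditional 95% intervals for counting error. In heart the iSuRe-Cre over Control points lie left of 1 except Jund and Atf3, and all Control points of the liver over heart panel lie left of 1.

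The 10 genes were not spread evenly over the cells of a group. Each cell was thinned to 2000 UMIs, so that depth did not differ, and the mean of 20 draws was taken. In Control heart 2.19% of cells then had none of the 10 genes and 50.5% had 5 or more; the mean number detected was 4.59. It was 4.01 with iSuRe-Cre and 4.39 with iSuRe-HadCre in heart, and 3.10, 3.43 and 3.73 in Control, iSuRe-Cre and iSuRe-HadCre liver. The shares of cells with a Fos UMI were computed exactly over all possible draws of 2000 UMIs, not from the 20. A UMI of Fos remained in 49.9% of Control heart cells, down from 74.0% unthinned, and in 41.1% and 41.8% of heart cells with iSuRe-Cre and iSuRe-HadCre. Erythroid progenitor-like cells, which held little Fos, kept a Fos UMI in 4.20%, at median depths before thinning of 60910 against 9100 UMIs in Control heart. The 2 iSuRe heart groups thus had like shares of cells with Fos at this depth while their Fos CPM differed 1.47-fold, and no order is read from the shares. The Fano factor, the variance over the mean, of Fos was 3.04 in Control heart, 3.32 with iSuRe-Cre and 4.02 with iSuRe-HadCre, where counts scattered at random would give 1. The 10% of Control heart cells with most Fos held 44.6% of its UMIs.

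The members tended to be detected in the same cells. Control heart cells with a Fos UMI held 6.46 times as many Fosb UMIs as cells without one, 5.03 times as many of Egr1, 3.07 of Zfp36, 2.78 of Atf3 and 2.68 of Junb. The gap was smaller for Ier2, 2.06, Jun, 1.79, Jund, 1.74, and Dusp1, 1.62, and absent for the endothelial genes Cdh5, which was also used to select the cells, 0.982, and Pecam1, 0.951. The same held in the other groups: Egr1 ran from 2.73 times in iSuRe-Cre liver to 4.36 in iSuRe-HadCre heart, and all 9 members were above 1 in all 6 groups. Cdh5 ran from 0.618 in iSuRe-HadCre liver, where 76 cells were read, to 0.982 in Control heart. Outside the hashtag groups the gap varied. The 9 ratios ran from 1.21 to 1.88 in Cdh5-positive cells with none of the group hashtags, of which 632 of 5585 also passed a non-endothelial gate. They ran from 1.66 to 4.19 in Krt5+ Krt14+ cells, but only from 1.05 to 1.33 in Alb+ Apoa1+ cells, where Cdh5 was at 1.27. In Ngp+ Camp+ cells they ran from 1.14 to 1.80 with Pecam1 at 1.60, and in Fabp7+ Hes5+ cells from 1.34 to 3.54 with Cdh5 and Pecam1 at 1.97 and 2.06, so in these 3 gates the ratios of the members overlapped those of the endothelial genes. These are descriptions over cells of 1 sample each, with no test.

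**Figure D4:**
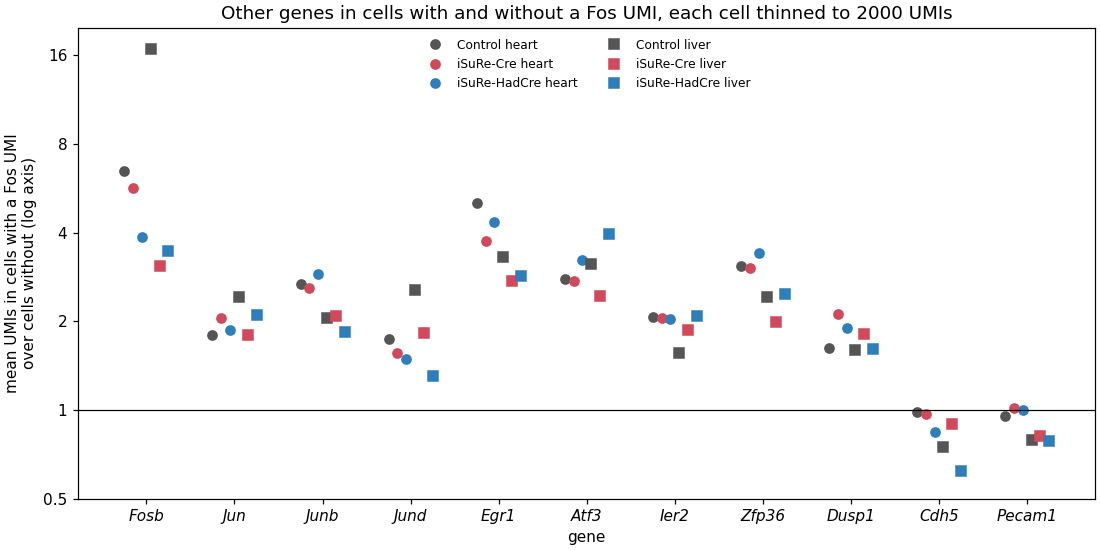
Mean UMIs of each gene in cells with a Fos UMI over the mean in cells without (vertical log axis), each cell thinned to 2000 UMIs, for the 6 hashtag groups (circles heart, squares liver; no interval drawn). In Control heart Fosb and Egr1 lie highest of the genes, at 6.46 and 5.03, whereas Cdh5 and Pecam1 lie near or below 1 in every group; the Fosb point of Control liver, at 16.8, rests on 54 cells.

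The pool also held cells of other types, gated by marker UMIs, and most of the 10 genes ranged further over these types than over the hashtag groups: Fos ran from 301 to 1556 CPM over types and from 258 to 694 CPM over groups. A gate asked for 3 or more UMIs of each gating gene, each at 2 or more times its free RNA level; most cells outside endothelium carried none of the 6 hashtags (209 of 233 in the Krt5+ Krt14+ gate), so their tissue and genotype are unknown. The cells compared were 1651 Fabp4+, 436 Stab2+, 141 Npr3+ and 71 Gja5+ ECs, and 233 Krt5+ Krt14+, 907 Col1a2+ Col3a1+, 107 Col2a1+ Acan+, 181 Fabp7+ Hes5+, 164 C1qa+ C1qb+, 367 Ngp+ Camp+ and 565 Alb+ Apoa1+ cells. Among the genes used to check the gates, Krt15 was at 751 CPM in the basal keratinocyte-like gate, Sox9 at 893 in the chondrocyte-like gate, Csf1r at 396 in the macrophage-like gate, Lyve1 at 638 in the sinusoidal gate, and Sox2 at 344 in the Fabp7+ Hes5+ gate. Levels are given against Fabp4+ ECs, with the share of 12267 genes past 2-fold in brackets after each count.

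Basal keratinocyte-like cells (Krt5+ Krt14+) had the highest summed level, 6957 CPM (6889 to 7025), with 4 members more than 2-fold higher than in Fabp4+ ECs (7.25% of genes). These were Fosb, 10.1 (9.23 to 11), Egr1, 3.97 (3.81 to 4.13), Fos, 3.22 (3.13 to 3.32), and Atf3, 2.43 (2.32 to 2.55). Dusp1 was at 0.522 (0.488 to 0.559) in the same cells, below its Fabp4+ level. Mesenchymal-like cells (Col1a2+ Col3a1+) shared the high Fosb, 7.87 (7.24 to 8.57), and Egr1, 2.43 (2.34 to 2.52) (2 higher, 10.6% of genes), with Zfp36 and Dusp1 lower (2, 9.23%), Dusp1 at 0.287 (0.271 to 0.304). Chondrocyte-like cells (Col2a1+ Acan+) were alike in this, with Fosb and Egr1 higher (2, 9.25%) and Junb, Atf3, Zfp36 and Dusp1 lower (4, 11.7%), Dusp1 at 0.135 (0.110 to 0.163). Hepatocyte-like cells (Alb+ Apoa1+) had Fosb higher (1, 6.97%), at 2.49 (2.21 to 2.80) but under its free RNA level of 117 CPM at 88.0 CPM, and Dusp1 lower (1, 14.8%), at 0.215 (0.193 to 0.238).

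Neural progenitor-like cells (Fabp7+ Hes5+) had the lowest sum of the 11 gates compared, 2011 CPM (1964 to 2059), with 6 members more than 2-fold lower (12.1% of genes). Atf3 was at 0.102 (0.0806 to 0.128), Zfp36 at 0.128 (0.101 to 0.160), Dusp1 at 0.141 (0.119 to 0.164) and Junb at 0.151 (0.134 to 0.169), while Fosb was at 1.21 (1.00 to 1.45). Their median depth was 16990 UMIs, near that of the mesenchymal gate at 15370. Macrophage-like cells (C1qa+ C1qb+) had Fosb, 4.10 (3.62 to 4.64), and Atf3, 2.28 (2.15 to 2.43), higher (2, 6.13%) and the highest Zfp36 of these gates, 278 CPM (259.5 to 298). Neutrophil-lineage-like cells (Ngp+ Camp+) had Jun, 0.358 (0.333 to 0.384), Atf3, 0.301 (0.257 to 0.351), and Dusp1, 0.391 (0.350 to 0.437), lower (3, 10.5%).

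Among endothelial gates the large-vessel-like cells (Gja5+) had the highest sum, 5249 CPM (5096 to 5407), with Fosb more than 2-fold higher (1, 3.51%), Fos at 1.99 (1.85 to 2.14) and Dusp1 at 454 CPM, its highest level. Sinusoidal-like cells (Stab2+) had the lowest sum, 2669 CPM (2621 to 2718), with Jund more than 2-fold lower (1, 2.62%) and all 10 members under their Fabp4+ level. The share of all genes under it was not computed; the median gene was at 1.02 and the median member at 0.630. These gates differ in tissue and genotype. Of the 436 Stab2+ cells 347 were iSuRe-Cre liver, while 323 of 1651 Fabp4+ cells were iSuRe-Cre heart and 215 Control heart. Within iSuRe-Cre liver the intervals of Egr1, Atf3 and Zfp36 held 1. Endocardial-like cells (Npr3+) lay between at 3786 CPM (3695 to 3878), with Fosb higher (1, 4.67%) at 2.31 (1.91 to 2.77) and Zfp36 at 0.557 (0.475 to 0.649). With 10 CPM added that Fosb ratio was 2.02, just past the limit. Fosb was under its free RNA level of 117 CPM in both the Gja5+ and Npr3+ gates, at 89.3 and 81.7 CPM. Of the Stab2+ cells 94 also passed the Fabp4 gate and count under each.

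Ordered by how far each gene ranged over these 11 gates, with 10 CPM added, Atf3 came first at 16.7-fold, then Fosb at 9.44, Zfp36 at 8.79, Dusp1 at 8.59, Egr1 at 7.13, Junb at 6.06, Fos at 5.04, Jun at 3.87, Ier2 at 2.74 and Jund at 2.50. The median over 12267 genes was 2.59-fold, so Jund and Ier2 ranged about as far as a typical gene. Fos was highest in Krt5+ Krt14+ cells, 1556 CPM, then in Gja5+ ECs and Col1a2+ Col3a1+ cells, 961 and 908 CPM, whose intervals overlap, and at the low end Fabp7+ Hes5+ and Stab2+ cells, 304 and 301 CPM, overlap as well. Dusp1 was highest in Gja5+ and Fabp4+ ECs, 454 and 327 CPM, and lowest in Fabp7+ Hes5+ and Col2a1+ Acan+ cells, 45.9 and 44.0 CPM, which overlap. Erythroid progenitor-like cells (Klf1+ Rhag+, 45 cells of median 60910 UMIs, too few for the comparison) held only 691 CPM in the sum and 24.8 CPM of Fos, far under free RNA. Cdh5-positive cells with none of the group hashtags, 5585 of median depth 4220 UMIs, had 3930 CPM in the sum, within the range of the tagged groups. Of these, 632 also passed a non-endothelial gate, and Alb was at 300 CPM over all 5585, so the set cannot be taken as ECs alone.

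**Figure D5:**
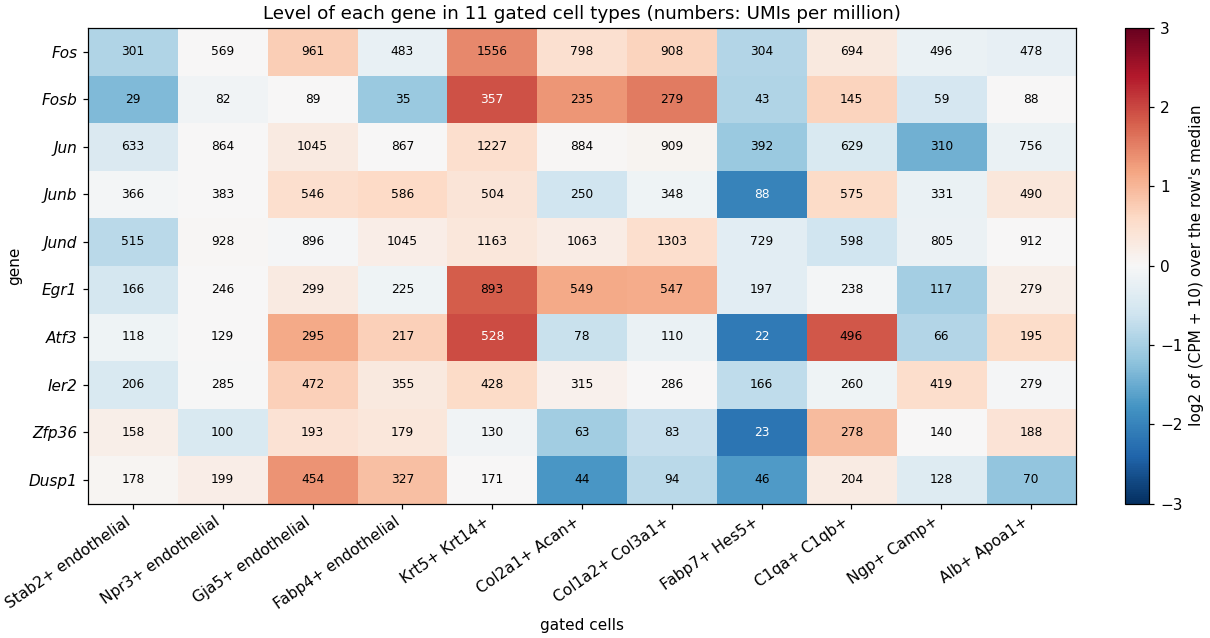
Level of each of the 10 genes (rows; numbers are CPM) in 11 gated cell types (columns); colour is the log2 of level plus 10 CPM over the row's median. Fosb, Egr1 and Fos are highest in the Krt5+ Krt14+ column, the Fabp7+ Hes5+ column is lowest for Junb, Atf3, Ier2 and Zfp36, and the Jund row is the most even.

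Other genes of the response were read from 3 lists: 28 further immediate early genes, 11 heat shock genes and 14 genes that carry signals to the members. In iSuRe-Cre over Control heart, 1 of 24 further immediate early genes with 200 or more UMIs was more than 2-fold lower and none higher (2.64% of all genes in either direction), with a median of 0.863; it was Klf4, a flow- and stress-responsive factor, at 0.433 (0.400 to 0.469). Nr4a2 was at 0.492 (0.396 to 0.613), and of the most abundant Btg2, an antiproliferative gene, was at 0.648, Zfp36l1, a relative of Zfp36, at 0.681, Sgk1 at 0.913 and Mcl1 at 0.982; the highest ratios, of Egr2 and Myc, had intervals that held 1. Between iSuRe-HadCre and iSuRe-Cre heart, 2 of the list were more than 2-fold higher and none lower (median 1.33, 2.53% of all genes), Klf4 at 2.97 (2.76 to 3.20) and Nr4a1, at 73.9, 52.0 and 123 CPM in Control, iSuRe-Cre and iSuRe-HadCre heart; Sgk1 was at 1.67, Btg2 at 1.58, Zfp36l1 at 1.23 and Mcl1 at 1.10, with Nr4a3 at 3.70 (2.33 to 5.93) but under 2-fold with 10 CPM added and Ier3 and Myc the lowest at 0.768 and 0.761. For iSuRe-HadCre over Control heart none of the list passed 2-fold (median 1.07, 1.31% of all genes). Sgk1 was at 1.53 (1.40 to 1.67), Mcl1 at 1.08, Btg2 at 1.03, Zfp36l1 at 0.840 and Ier3, the lowest, at 0.657 (0.574 to 0.751). Socs3 was at 0.803, and Egr2 and Nr4a3, the highest at 3.91 and 2.70, were at 5.16 and 15.2 CPM there.

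The inducible heat shock genes Hspa1a and Hspa1b were higher in iSuRe-HadCre heart than in both other heart groups. For iSuRe-HadCre over Control heart 3 of 11 were more than 2-fold higher and none lower (median 1.32, 1.31% of all genes): Hspa1b, 3.92 (3.41 to 4.51), Hspa1a, 2.81 (2.48 to 3.18), and Hsph1, at 68.6 against 27.7 CPM. Against iSuRe-Cre heart the same pair stood at 3.99 (3.62 to 4.40) and 2.67 (2.45 to 2.92), 2 of the list being more than 2-fold higher and none lower (median 1.19, 2.53% of all genes). The pair are near-identical copies, so the split of UMIs between them is uncertain. The constitutive chaperones Hsp90ab1 and Hspa8 were the lowest of the list in both comparisons, at 0.907 and 0.959 against Control, with Dnaja1 at 1.09 and Hsp90aa1 at 1.65 (1.52 to 1.79). In iSuRe-Cre over Control heart none passed 2-fold (median 1.08, 2.64% of all genes). Hspb1 was lowest at 0.682 (0.620 to 0.751) and Hsph1 highest at 1.42 (1.11 to 1.83), with Hsp90aa1 at 1.29, Hspa1b at 0.983, Hsp90ab1 at 1.11, Hspa8 at 1.08 and Dnaja1 at 1.01. Over the gated types Hspa1a and Hspa1b were at 174 and 142 CPM in Fabp4+ ECs and at 25.8 and 38.2 CPM in Krt5+ Krt14+ cells, the opposite order to Fos and Egr1.

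The genes that carry signals to the members were MAP kinases and the factors SRF, ELK, CREB and ATF2. None of 13 counted passed 2-fold in any of the 3 heart comparisons, with medians of 0.947 for iSuRe-Cre over Control, 1.10 for iSuRe-HadCre over Control and 1.24 for iSuRe-HadCre over iSuRe-Cre. Of all genes 2.64%, 1.31% and 2.53% passed 2-fold in this order, so nothing about the list is read from this count. For iSuRe-Cre over Control the ETS factor Elk4 and the kinase Mapk8 were lowest, 0.633 (0.552 to 0.727) and 0.647 (0.530 to 0.791), Map2k2 was at 1.24 (1.09 to 1.41), and the highest, Srf at 1.50, had an interval that held 1; Elk3 and Mapk3 were at 0.781 and 0.752. For iSuRe-HadCre over Control the SRF cofactor Mrtfa was highest, 1.66 (1.32 to 2.10), then Mapk14 at 1.43; Mapk3 was at 0.829 and Elk1 lowest at 0.651 with an interval that held 1, and Elk3 and Map2k2 were at 0.977 and 1.11. For iSuRe-HadCre over iSuRe-Cre Elk4 and Mrtfa were highest, 1.92 (1.69 to 2.18) and 1.78 (1.48 to 2.13), Elk1 and Srf lowest at 0.726 and 0.730 with intervals that held 1, and Elk3, Mapk3 and Map2k2 at 1.25, 1.10 and 0.898.

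Over 17 sets of cells (the hashtag groups and gates of 50 or more cells, which share cells and 1 library) the genes whose level was most like the mean of the 10 members, by Pearson r of log2(CPM + 10) among 12725 genes, were Sertad1 (0.834), Dnajb1 (0.765), Klf6 (0.744), Tes (0.717) and Hcfc1r1 (0.714). Most like Fos were Fosb (0.842), Egr1 (0.835), Egr2 (0.826), Nfe2l3 (0.791) and Tiparp (0.747), of which Fosb and Egr1 are themselves members, and most like Jund were Gm20721 (0.849), Bcl7c (0.830), Ccdc102a (0.805), Dazap1 (0.805) and H3f3b (0.804), none of them a member. Among the members the closest pair was Junb and Zfp36 at 0.913 and the least alike Fosb and Dusp1 at -0.281. Likeness over sets that share cells is a description only.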

How the data were processed

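The deposited file holds raw UMI counts per gene, transgene, hashtag and barcode, unfiltered, made by the authors with Cell Ranger 7.1.0 on GRCm38 with Ensembl gene build 98 and added transgene sequences; all groups shared 1 library. Of 24161 barcodes above 2000 gene UMIs, 14348 passed the study's filters on UMIs, genes, and mitochondrial and haemoglobin shares. Of these, 2391 carried 1 of the hashtags that name a group, at 25 or more UMIs (1 tag at 140 or more). Another 186 carried several of these hashtags and were left out as doublets, and 11771 carried none of them at its minimum. These tag minimums are not the study's: it called tags with HTODemux, which was run here as the alternative. No further doublet caller was run; 144 barcodes that passed gates of 2 types were left out. Cells were Cdh5-positive above the study's limit of 0.9 log-normalised counts; the study's limit on WPRE was an alternative here. Counts were summed per group or gate and divided by total gene UMIs. Intervals at 95% are exact Poisson for levels and exact conditional for ratios, and cover counting error only; a gene with 200 or more UMIs over the groups compared was called past 2-fold with 10 CPM added to both levels. With 1 sample a group no test was run. The 7 hashtag features with no group in the labels were not analysed here. Cells counted as carrying none may therefore carry 1 of these 7, and doublets with those tags were not removed. Genes named from lists were, per list, the 4 with most UMIs and those of most extreme ratio in each heart comparison; Nr4a1 and Hsph1 were added because they were called, and some values are not reported here. The members and lists were chosen with earlier results of these data known. Calls were tested on simulated data. Python 3.11.15, numpy 2.4.6, scipy 1.17.1 and pandas 2.3.3 were used, and Seurat for the HTODemux alternative.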

Additional observations from a re-analysis of the deposited data

Results flagged for a closer look

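In the iSuRe-Cre over Control contrast, 5 members and the sum had ratios whose counting intervals lay on opposite sides of 1 in heart and in liver. The share of all genes that did the same was not computed, so nothing particular to the members is read from this count. Fos was at 0.738 in heart and 1.51 in liver, Junb at 0.794 and 1.45, Egr1 at 0.751 and 1.32, and Zfp36 at 0.551 and 1.59. Jund ran the opposite way, at 1.09 in heart and 0.776 in liver, and the sum was at 0.825 and 1.08. In iSuRe-HadCre over Control, Jun was at 0.913 in heart and 1.17 in liver, and in iSuRe-HadCre over iSuRe-Cre, Zfp36 was at 1.23 and 0.731. With HTODemux the liver sum for iSuRe-Cre over Control was 0.870 and the heart sum 0.859, both below 1, and at a hashtag minimum of 50 the liver interval (0.985 to 1.09) held 1, so the opposition of the sums was lost under both. With 1 sample a group the difference between tissues was not tested. The liver values against Control rest on 54 Control cells, of which 1 passed the Stab2 gate against 347 of 858 in iSuRe-Cre, and the part of this in the ratios was not tested.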

How the results depend on the processing

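The summed ratios were recomputed under 89 planned combinations of setting and comparison, of which 50 stayed within the counting interval and 39 left it, and under 13 chosen after seeing the data, of which 3 stayed and 10 left it. Direction held in every setting run for iSuRe-Cre under Control in heart (0.749 to 0.964), iSuRe-HadCre over iSuRe-Cre in heart (1.08 to 1.42) and in liver (1.07 to 1.22), and liver under heart in Control (0.499 to 0.812), iSuRe-Cre (0.621 to 0.834) and iSuRe-HadCre (0.643 to 0.756). It crossed 1 for iSuRe-HadCre over Control in heart and, with HTODemux, for both iSuRe groups over Control in liver, as given with the values below; the cause was not tested. Taking cells with 1 or more Cdh5 UMIs gave 1.07 for iSuRe-HadCre over iSuRe-Cre in liver and 0.678 for liver over heart in iSuRe-HadCre. Keeping only iSuRe cells above the WPRE limit gave 0.964 for iSuRe-Cre over Control in heart, 1.08 for iSuRe-HadCre over iSuRe-Cre in heart and 0.694 for liver over heart in iSuRe-Cre. Calling hashtags with HTODemux gave 0.859 for iSuRe-Cre over Control in heart, 1.08 for iSuRe-HadCre over Control in heart, 0.870 for iSuRe-Cre over Control in liver, 0.992 for iSuRe-HadCre over Control in liver, 0.812 for liver over heart in Control and 0.822 for liver over heart in iSuRe-Cre. A hashtag minimum of 50 UMIs gave 1.08 for iSuRe-HadCre over Control in heart, 1.30 for iSuRe-HadCre over iSuRe-Cre in heart and 0.652 for liver over heart in Control. A mitochondrial limit of 10% gave 1.22 for iSuRe-HadCre over iSuRe-Cre in liver and 0.789 for liver over heart in iSuRe-Cre. Taking cells of fewer than 6000 genes gave 1.20 for iSuRe-HadCre over iSuRe-Cre in liver and 0.762 for liver over heart in iSuRe-Cre. Averaging CPM over cells gave 0.806 for iSuRe-Cre over Control in heart, 0.994 for iSuRe-HadCre over Control in heart, 1.23 for iSuRe-HadCre over iSuRe-Cre in heart, 0.555 for liver over heart in Control, 0.732 for liver over heart in iSuRe-Cre and 0.672 for liver over heart in iSuRe-HadCre. Scaling by the median gene ratio gave 0.851 for iSuRe-Cre over Control in heart, 0.976 for iSuRe-HadCre over Control in heart, 1.15 for iSuRe-HadCre over iSuRe-Cre in heart, 0.580 for liver over heart in Control and 0.761 for liver over heart in iSuRe-Cre. Subtracting 20% free RNA gave 0.802 for iSuRe-Cre over Control in heart, 1.30 for iSuRe-HadCre over iSuRe-Cre in heart, 0.565 for liver over heart in Control, 0.770 for liver over heart in iSuRe-Cre and 0.693 for liver over heart in iSuRe-HadCre. Leaving out cells in a non-endothelial gate gave 1.08 for iSuRe-HadCre over Control in heart, 1.30 for iSuRe-HadCre over iSuRe-Cre in heart, 1.20 for iSuRe-Cre over Control in liver, 1.36 for iSuRe-HadCre over Control in liver and 0.556 for liver over heart in Control. Taking cells of 5000 to 15000 UMIs gave 0.913 for iSuRe-Cre over Control in heart, 0.997 for iSuRe-HadCre over Control in heart, 1.09 for iSuRe-HadCre over iSuRe-Cre in heart, 1.14 for iSuRe-Cre over Control in liver, 0.499 for liver over heart in Control, 0.621 for liver over heart in iSuRe-Cre and 0.643 for liver over heart in iSuRe-HadCre. Taking cells in the Fabp4 gate gave 0.749 for iSuRe-Cre over Control in heart, 1.42 for iSuRe-HadCre over iSuRe-Cre in heart and 0.834 for liver over heart in iSuRe-Cre. HTODemux put 660 cells in Control heart and 230 in Control liver, against 254 and 54. The settings on depth and on the Fabp4 gate were chosen after seeing the data, and the Fabp4 gate was not run against the liver Control and iSuRe-HadCre groups, which held too few such cells. All 60 shares of cells with a UMI moved when cells were thinned to 2000 UMIs. At 1.5-fold in place of 2-fold the number of members called was 2, 0 and 1 in place of 0 for iSuRe-Cre over Control, iSuRe-HadCre over Control and iSuRe-HadCre over iSuRe-Cre in heart. In liver it was 1, 4 and 1 in place of 0, 1 and 0. For liver over heart it was 6, 2 and 3 in place of 4, 0 and 1 in Control, iSuRe-Cre and iSuRe-HadCre. The share of all genes past 1.5-fold was not computed, so nothing about the members is read from these counts. A minimum of 50 UMIs for a gene changed no share of genes called at 2-fold by over 1.5 times. No paired analysis was possible because each group was 1 sample, and with no replicate none could be left out. Counts were low in Control liver, the group with fewest cells, which rested on 23 UMIs of Fosb and 65 of Zfp36, and no difference between hashtag groups can be told apart from a difference between pups, tag calling or handling.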

Other observations

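Gates of fewer than 50 cells entered no comparison, and their levels are given as values only. Prox1+ ECs (33 cells) held the 10 genes at 5040 CPM (4856 to 5229) in all, near Gja5+ ECs, with Fos at 859 CPM and Dusp1 at 224 CPM. The lymphatic check genes Flt4, Pdpn and Reln were at 90.7, 32.0 and 130 CPM there, against 44.4, 15.2 and 56.35 CPM in free RNA. They were found in 57.6%, 21.2% and 27.3% of the cells, so a lymphatic identity is not read from the gate. Smooth muscle-like cells (Myh11+ Acta2+, 48 cells) were at 3034 CPM (2911 to 3161), with Fos at 521 and Jund at 639 CPM. Peripheral neuron-like cells (Prph+ Stmn2+, 25 cells) were at 1678 CPM (1571 to 1790), with Fos at 199 and Jund at 798 CPM. Cardiomyocyte-like cells (Myh6+ Tnnt2+) numbered 5 and were at 2474 CPM (2220 to 2748).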
